A study of Mus musculus with 48 samples.

Results

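The heat shock proteins and their J-domain cochaperones are the 2 groups of chaperone genes that share the Hsp and Dnaj symbols. They were taken from the deposited count table of mouse striatum as the rows whose symbol belongs to an Hsp (a, b, d, e, h or numbered) or a Dnaja, Dnajb or Dnajc family, pseudogenes left out, with at least 10 counts in 7 or more libraries. Of 48795 rows, 75 had such a symbol and 68 reached the threshold, 28 of them heat shock protein rows and 40 J-domain rows. All 68 also passed the filter of the test, whose background is 19975 genes. The last members inside the threshold were Hspa1l, Hspb2 and Hspb3, with 13, 12 and 9 libraries at 10 counts or more. The nearest outside it were Dnajb7, Hspb7 and Dnajc22, with at most 9, 8 and 7 counts in any library. Hspa14 occurs on 2 identifiers (ENSMUSG00000109865 and ENSMUSG00000051396), and both rows were kept. GENCODE M21 names the second Gm45902, a protein-coding gene that overlaps Hspa14 on the same strand, so reads may be split between them.

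Striatum was dissected from C57BL/6 mice of both sexes at 6 months of age, and its RNA was sequenced as 48 libraries. The groups were wild type (7 libraries), Msh3+/- (9), Msh3-/- (8), mice heterozygous for the Q140 knock-in allele (8), Q140 Msh3+/- (8) and Q140 Msh3-/- (8). The Q140 allele carries an expanded CAG repeat in the huntingtin gene and models Huntington's disease. The Msh3 protein acts in mismatch repair and promotes expansion of such repeats. The comparisons address how chaperone transcripts differ in Q140 striatum and whether they differ from Q140 when Msh3 alleles are altered as well.

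Chaperones hold unfolded proteins, help them fold or pass them on for degradation. J-domain proteins deliver clients to Hsp70 and start its ATP hydrolysis, exchange factors such as the Hsp110 proteins reset it, and Hsp90 acts on later folding steps. Heat shock factor induces one set of these genes in the cytosol, unfolded protein in the endoplasmic reticulum induces another, and several members are known to limit aggregation of polyglutamine proteins.

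Library totals ran from 33.7 to 52.8 M counts. Msh3, the targeted gene, was read at 29.08 to 33.04 CPM (counts relative to library size, scaled with edgeR's TMM factors) in wild type, 68.18 to 85.36 in the libraries labelled Msh3+/- and 111 to 131.5 in those labelled Msh3-/-. On the Q140 background it was read at 29.48 to 33.21, 73.02 to 81.82 and 118.3 to 135.5 CPM in the same order. The labelled genotypes separate without overlap, but the counts rise with the number of altered alleles, so they do not show a loss of Msh3 and the genotypes are those of the labels. The 14 markers of medium spiny neurons, the main neuron of the striatum, summed to 16480 to 18610 CPM in wild type, 9359 to 14040 in Q140, 12720 to 15330 in Q140 Msh3+/- and 13930 to 16410 in Q140 Msh3-/-.

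The Hsp90 genes were the most abundant family. Per length, Hsp90ab1, the constitutive cytosolic Hsp90, had a mean of 472.2 FPKM over the 48 libraries, Hsp90b1, the Hsp90 of the endoplasmic reticulum, 80.6 FPKM and the inducible Hsp90aa1 58.8 FPKM. Among the Hsp70 genes the constitutive Hspa8 led at 109.8 FPKM, ahead of Hspa5 of the endoplasmic reticulum at 52.08 FPKM and the mitochondrial Hspa9 at 51.57 FPKM. The stress-inducible Hsp70 pair stood far lower, Hspa1a at 0.54 and Hspa1b at 0.37 FPKM. These genes are near-identical, so the handling of reads that match both can affect their levels. The exchange factors Hsph1 and Hspa4 had 43.51 and 39.84 FPKM.

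Dnaja2, a general Hsp40, led the J-domain genes at 51.66 FPKM. It was followed by Dnajc7 at 41.91, Dnajc5 at 40.12 and Dnajc6 at 36.44 FPKM. Dnajc5 encodes the cysteine string protein of synaptic vesicles, and Dnajc6 encodes auxilin, which recruits Hspa8 to uncoat clathrin-coated vesicles. The Dnajb family ran from Dnajb5 at 20.69 to Dnajb13 at 0.20 FPKM, and Dnajc25 was the lowest Dnajc gene at 1.01 FPKM. The 6 rows with an Hspb symbol were scarce, from Hspb8 at 4.92 to Hspb3 at 0.18 FPKM. Cryab, a small heat shock protein outside the symbol rule, had a mean of 60.48 FPKM in wild type. The mitochondrial chaperonin Hspd1 and its partner Hspe1 had 38.63 and 14.85 FPKM. Reads of Hspd1 are uncertain because the pseudogene Hspd1-ps3 was itself given 1627 counts a library on average.

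**Figure D1:**
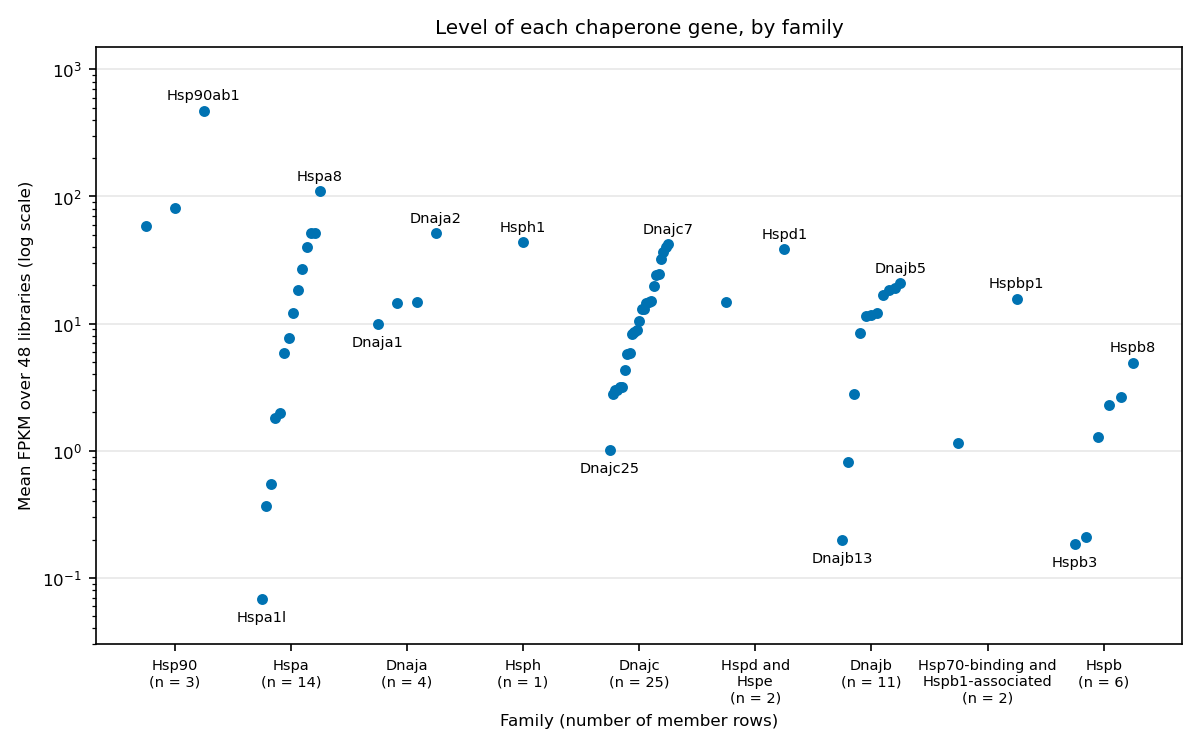
Mean FPKM of each of the 68 member rows over the 48 libraries (log axis), by family, with the number of rows in each. Each point is 1 row, and the named extremes include Hsp90ab1 at 472.2 FPKM and Hspa1l at 0.068 FPKM.

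Most members varied little between libraries. The median standard deviation (SD) of log2 CPM within a group and sex was 0.0960 over the members and 0.147 over all genes tested. These medians were not matched for level. Among the members lowest in FPKM, Hspb2 and Dnajb13 had SDs of 0.676 and 0.769. Hspa9 was the steadiest member, with an SD of 0.0486. Among members above 20 FPKM the most variable were Hspa5 (SD 0.217), Dnajb5 (0.215), Hspa8 (0.144) and Hsph1 (0.136).

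In Q140 striatum a small number of chaperone genes differed from wild type, each by a small amount. Lower were Hsp90b1, Hspa4 and 5 Dnajc genes. Higher were Dnajc4 and 2 Hsp70 genes, Hspa13, an Hsp70-like protein of microsomes, and Hspa2, an Hsp70 best known from testis. In all, 10 of 68 members (14.7%) passed an adjusted p of 0.05, 3 higher and 7 lower (edgeR's quasi-likelihood test, Benjamini-Hochberg over 19975 genes), against a background of 19.9% of all genes tested. The median log2 change was -0.0084 for the members and 0.0145 for all genes.

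Hsp90b1 (chromosome 10, 86690209 to 86705509, GRCm38) ran from 321 to 356 CPM in wild type, with a median of 340, and from 249 to 319 CPM in Q140, with a median of 280. All 8 Q140 libraries lay below every wild type library. The log2 change was -0.25 ± 0.06 (SE, 8 against 7 libraries, edgeR adjusted p = 0.00255). Hspa4 (chromosome 11, 53259814 to 53300457) ran from 215 to 240 CPM in wild type, median 233, and from 171 to 216 CPM in Q140, median 206. Of the Q140 libraries, 7 of 8 were below all wild type libraries. Its log2 change was -0.20 ± 0.04 (edgeR adjusted p = 0.000717).

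Dnajc2, the J-domain protein of the ribosome-associated complex (chromosome 5, 21757267 to 21785251), had the smallest adjusted p of the members. It ran from 42.9 to 53.9 CPM in wild type, median 47.0, and from 34.8 to 45.1 CPM in Q140, median 39.4. Here too 7 of 8 Q140 libraries lay below all wild type ones, and the log2 change was -0.27 ± 0.05 (edgeR adjusted p = 6.99e-05). Dnajc4 (chromosome 19, 6987911 to 6992572) moved the other way, from 8.17 to 9.89 CPM in wild type, median 9.31, to 9.73 to 11.5 CPM in Q140, median 10.4. It was above every wild type library in 7 of 8 Q140 libraries, with a log2 change of 0.21 ± 0.05 (edgeR adjusted p = 0.00335).

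The other 4 lower Dnajc genes have separate roles. Dnajc8, which is found with the spliceosome, ran from 78.3 to 86.4 CPM in wild type and from 70.0 to 80.7 in Q140. Dnajc13, an endosomal protein, ran from 98.0 to 110 and from 81.4 to 103 CPM. Dnajc7, whose TPR repeats bind Hsp70 and Hsp90, ran from 195 to 216 and from 183 to 212 CPM. In each of these 3 genes the groups overlapped, with 6 of 8 Q140 libraries below all wild type ones. Their log2 changes were -0.15, -0.16 and -0.11 (edgeR adjusted p = 0.00286, 0.00548 and 0.0129). Dnajc27, which joins a Rab-like GTPase to a J-domain, had 111 to 125 CPM in wild type and 94.5 to 121 in Q140, with 2 of 8 below all wild type. Its log2 change was -0.11 (edgeR adjusted p = 0.0459), and the call was lost without wild type male 2 (0.0652), without Q140 male 2 (0.0521) and with replicate numbers as a block (0.073).

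The 2 higher Hsp70 genes overlapped more. Hspa13 ran from 39.5 to 49.1 CPM in wild type, median 43.5, and from 44.1 to 51.1 in Q140, median 47.7. Hspa2 ran from 25.5 to 36.0, median 29.7, and from 27.8 to 38.0, median 34.8. In both, 2 of 8 Q140 libraries were above all wild type libraries. The log2 changes were 0.13 ± 0.04 for Hspa13 and 0.21 ± 0.07 for Hspa2 (edgeR adjusted p = 0.0173 and 0.0312). Hspa13 was no longer called without wild type female 3 (adjusted p = 0.0704), nor Hspa2 without Q140 male 2 (adjusted p = 0.0622).

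**Figure D2:**
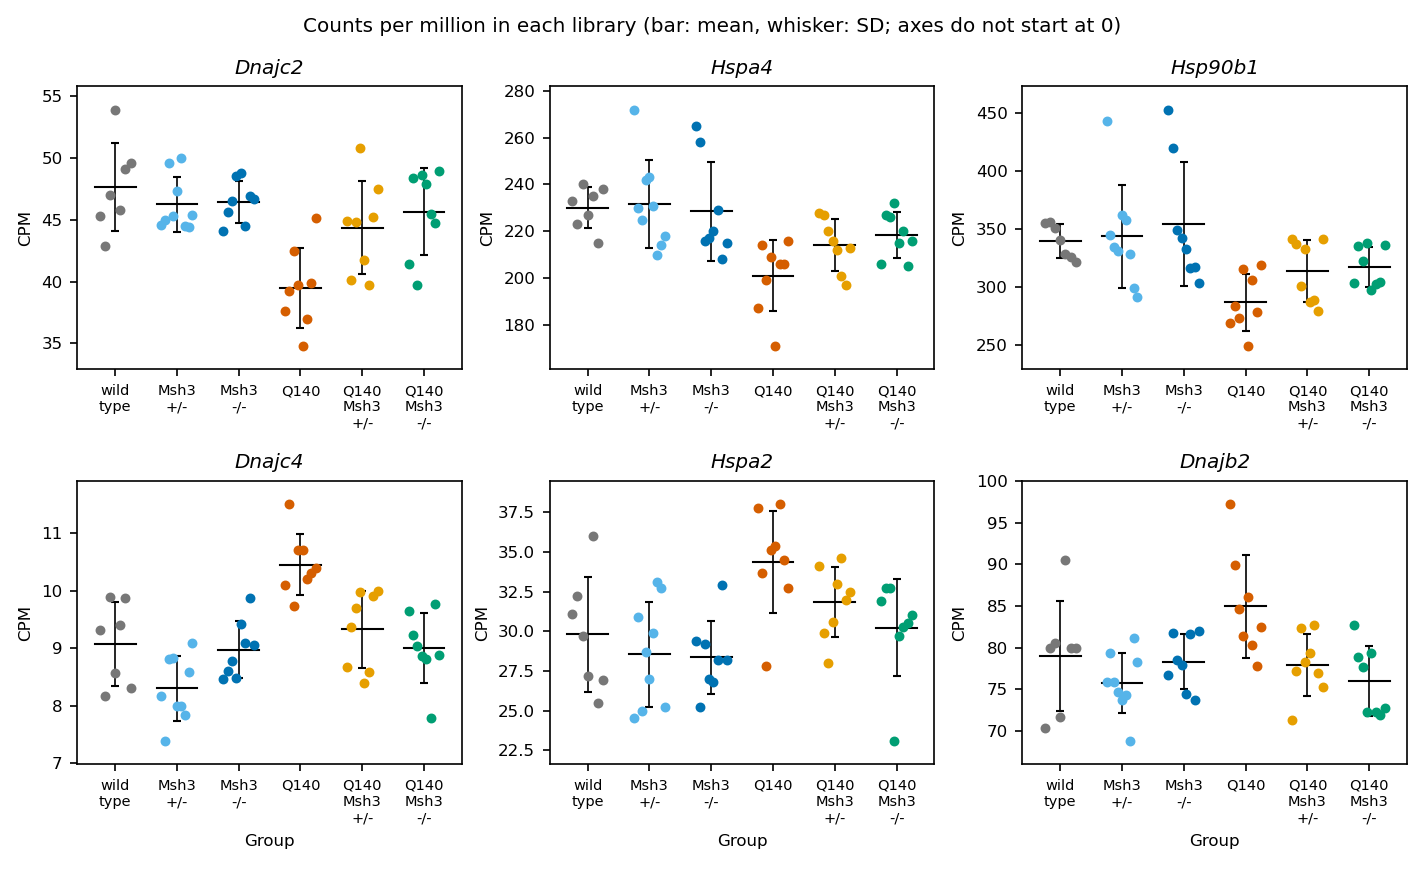
CPM in every library of 6 members called in a comparison with Q140, by group (point: library, bar: mean, whisker: SD, axes not starting at 0). All 8 Q140 points of Hsp90b1 (249 to 319 CPM) lie below the wild type ones (321 to 356 CPM), and 7 of 8 Q140 points of Dnajc4 lie above.

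Hspa1a, Dnajb1 and Hsph1, which heat shock factor induces, did not pass. Hspa1a had 1.08 to 2.10 CPM in wild type and 0.971 to 2.84 in Q140, and its log2 change of 0.14 had a 95% interval of -0.24 to 0.52. Dnajb1, the Hsp40 partner of inducible Hsp70, had 31.1 to 44.2 and 31.5 to 41.9 CPM, with an interval of -0.20 to 0.05. Hsph1 had 289 to 356 and 238 to 327 CPM, with an interval of -0.26 to 0.0099. The interval of Hspa1a, which rests on 39 to 132 counts a library in Q140, is the widest of these. Hspa1a and Hspa1b are near-identical genes, so reads may be divided between them.

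Dnajb6, Dnajb2, Hspb8 and Hspb1 were also not called with TMM. Dnajb6, a suppressor of polyglutamine aggregation, had 15.6 to 17.6 CPM in wild type and 15.6 to 19.5 in Q140, a log2 change of 0.08 (interval -0.02 to 0.17). Dnajb2, a neuronal J-domain protein that directs clients to the proteasome, had 70.3 to 90.5 and 77.8 to 97.2 CPM, a change of 0.10 (edgeR adjusted p = 0.0892). With library totals in edgeR both passed, as higher (adjusted p = 0.00968 and 0.00341). Also higher in that setting were Dnaja2 (adjusted p = 0.013), Dnaja3 (0.000455), Dnaja4 (0.0121), Dnajb9 (0.0114) and Dnajb12 (0.00145). With TMM Hspb8, which acts with Bag3, had a change of -0.19 (adjusted p = 0.138), and the small heat shock protein Hspb1 one of -0.38 (adjusted p = 0.147). None of the 6 Hspb, 4 Dnaja or 11 Dnajb genes passed in the main edgeR fit with TMM, and 2, 0 and 2 of them had an unadjusted p under 0.05. DESeq2 likewise called 10 members in this comparison, 3 higher and 7 lower.

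With TMM most of the constitutive and organelle genes gave narrow intervals, which do not cover the choice of scaling. Hsp90ab1 had 1360 to 1520 CPM in wild type and 1290 to 1480 in Q140 (interval of the log2 change -0.12 to 0.03). Hspa8 had 413 to 508 and 423 to 523 CPM (interval -0.05 to 0.23). The mitochondrial Hspa9 had 195 to 216 and 196 to 208 CPM (interval -0.07 to 0.05), and Hspd1 98.8 to 105 and 93.1 to 108 CPM (interval -0.08 to 0.05). Hspa5 had 197 to 250 and 150 to 268 CPM, with a wider interval of -0.35 to 0.11. With library totals the log2 changes of Hsp90ab1 (0.0365), Hspa9 (0.0679) and Hspd1 (0.0683) lay above these intervals. Those of Hspa8 (0.17) and Hspa5 (-0.05) lay inside them, and none of these genes passed in that setting. On log2(FPKM + 0.1) Hspa8 passed in limma (0.17, adjusted p = 0.0498).

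How libraries were scaled set the balance of higher and lower calls. TMM factors were 1.009 to 1.09 in Q140 and 0.97 to 1.002 in wild type. With library totals alone 22 members passed, 19 higher and 3 lower, where TMM gave 3 and 7. Of all genes 30.9% then passed, and their median log2 change was 0.0951. FPKM, which is relative to library totals, gave 21 higher and 3 lower in limma.

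Among all 68 members 16 changed sign between TMM and library totals, none of them called with TMM. Hsp90b1, Hspa4, Dnajc2, Dnajc4, Hspa13 and Hspa2 passed under both scalings, while Dnajc7, Dnajc8, Dnajc13 and Dnajc27 passed only with TMM. A further 16 members passed only with library totals, all of them higher. Among these, Dnajc6 had a log2 change of 0.15 with totals and 0.07 with TMM, and Dnajb6 0.16 and 0.08. Hspa9 had a log2 change of -0.01 with TMM and 0.07 on FPKM, where it passed in limma (adjusted p = 0.0392).

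**Figure D3:**
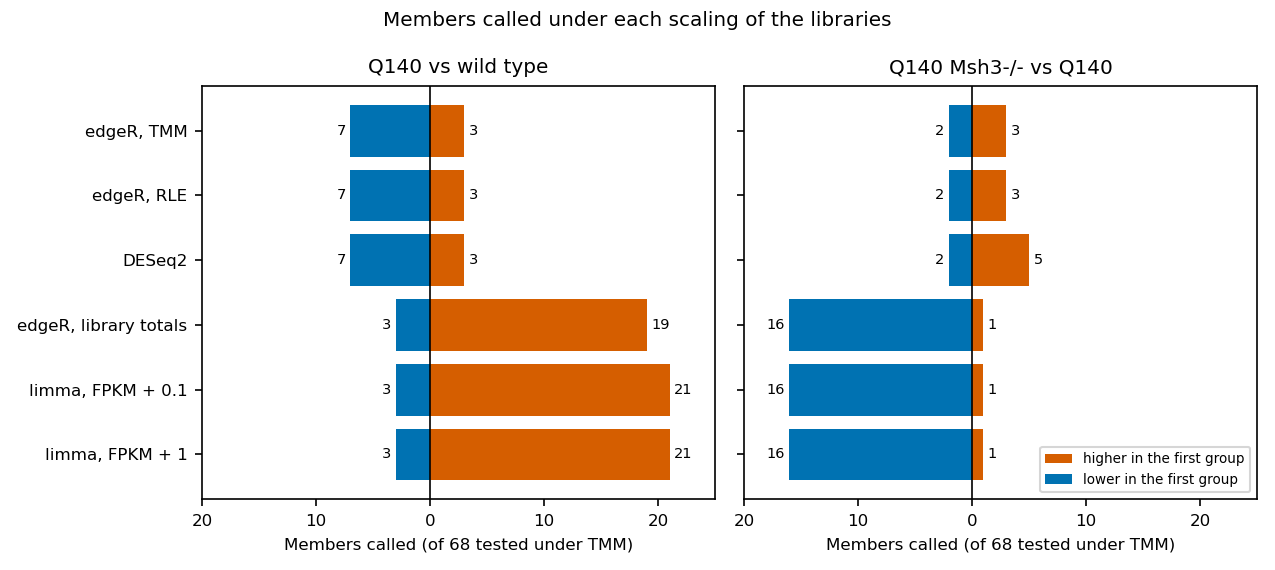
Members called higher (right of 0) and lower (left of 0) under each way of scaling and testing, for Q140 compared with wild type (left panel) and for Q140 Msh3-/- compared with Q140 (right panel). TMM gives 3 higher and 7 lower in the first comparison and library totals give 19 and 3, while in the second 3 and 2 become 1 and 16.

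Markers of several cell types moved in the same comparison. Of the medium spiny neuron markers, 13 of 14 were lower in Q140 and 1 higher, with a median log2 change of -0.57. Of 9 astrocyte markers 5 were lower, and their sum was 5156 to 5580 CPM in wild type and 4007 to 4815 in Q140. Of 7 endothelial markers 4 were lower, with sums of 205.8 to 241.4 and 160.6 to 223.3 CPM. Lower too were 3 of 8 microglial, 2 of 6 mural and 1 of 8 oligodendrocyte markers. The part of these cell types in the chaperone changes was not tested, and in bulk tissue fewer cells of a type and less RNA per cell cannot be told apart.

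In Q140 striatum labelled Msh3-/-, 5 J-domain genes differed from Q140 alone with TMM. Dnajc2, Dnajc8 and Dnajc7 were higher, and Dnajc4 and Dnajb2 lower. These are 5 of 68 members (7.35%), against 11.9% of all genes tested. In the main edgeR fit (TMM, group and sex, all 48 libraries) none of the 28 heat shock protein rows passed, and 5 had an unadjusted p under 0.05. DESeq2 called 1 of them, Hspa4 (adjusted p = 0.04). With library totals in edgeR Hspa13, Hspa2, Hspbp1, Hspa1a, Hspa9 and Hspa8 passed, all lower (adjusted p = 0.0042, 0.0152, 0.0261, 0.0376, 0.0406 and 0.0462). The comparisons of the Msh3 genotypes on the Q140 background use the same Q140 libraries as the comparison with wild type, so their changes are not independent of those above.

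Dnajc2 had 39.7 to 48.9 CPM in Q140 Msh3-/-, median 46.7, beside a median of 39.4 in Q140 and 47.0 in wild type. In 5 of 8 libraries it was above every Q140 library, and the log2 change was 0.21 ± 0.05 (edgeR adjusted p = 0.00249). Dnajc4 had 7.79 to 9.77 CPM, median 8.96, with 7 of 8 libraries below every Q140 library. Its log2 change was -0.22 ± 0.05 (edgeR adjusted p = 0.00281). Dnajb2 (chromosome 1, 75236406 to 75245692) had 71.9 to 82.7 CPM, median 75.1, against 77.8 to 97.2, median 83.5, in Q140. Of its libraries 5 of 8 were below all of Q140, and the log2 change was -0.16 ± 0.04 (edgeR adjusted p = 0.00715).

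Dnajc8 and Dnajc7 differed by less. Dnajc8 had 74.8 to 85.7 CPM, with 5 of 8 libraries above all Q140 libraries and a log2 change of 0.12 ± 0.04 (edgeR adjusted p = 0.0218). Dnajc7 had 193 to 214 CPM, with 2 of 8 above and a change of 0.10 ± 0.03 (adjusted p = 0.0272). The call of Dnajc8 was lost without Q140 male 2 (adjusted p = 0.0515). With plate row as a covariate both were lost (adjusted p = 0.0671 for Dnajc8 and 0.0553 for Dnajc7), and Dnajc7 also with only the groups compared (0.0832). With library totals 17 members passed, 1 higher and 16 lower, where TMM gave 3 and 2, and Dnajc7 and Dnajc8 were no longer among them.

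Hsp90b1 and Hspa4, lower in Q140, were not called in edgeR here. Hsp90b1 had 297 to 338 CPM in Q140 Msh3-/- and a log2 change of 0.15 (95% interval 0.02 to 0.27, edgeR adjusted p = 0.111). Hspa4 had 205 to 232 CPM and a change of 0.12 (interval 0.03 to 0.21, adjusted p = 0.0637). In each, 4 of 8 libraries were above every Q140 library. Both passed (adjusted p = 0.0236 and 0.0199) without Msh3+/- female 1, Msh3-/- female 1 and Msh3-/- female 2, left out after seeing the data because they share the stem of their animal codes. Hspa1a had 0.962 to 1.61 CPM, a change of -0.46 with TMM (interval -0.83 to -0.09, adjusted p = 0.099). With library totals in edgeR Hspa1a passed (-0.52, adjusted p = 0.0376). Medium spiny neuron markers were higher in this comparison, 13 of 14 with a median log2 change of 0.41. Higher too were 3 of 9 astrocyte, 2 of 6 mural and 1 of 8 microglial markers, and 1 of 5 cortex markers was lower. The part of these marker lists in the values was not tested.

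In Q140 striatum labelled Msh3+/- no member passed against Q140 in edgeR, where 1.98% of all genes did. At an unadjusted p under 0.05 there were 8 members, and DESeq2 called 2, Dnajc2 (adjusted p = 0.0275) and Dnajc7 (adjusted p = 0.045), both higher. Dnajc2 had 39.7 to 50.8 CPM, median 44.9, and a log2 change of 0.17 ± 0.05 (edgeR adjusted p = 0.0531). Dnajc4 had a lowest value of 8.39 and a median of 9.53 CPM, and a change of -0.17 ± 0.05 (edgeR adjusted p = 0.0691). In edgeR Dnajc2 was called without wild type female 3 (adjusted p = 0.0475), wild type male 2 (0.0467) or Msh3+/- female 1 (0.0476), and Dnajc4 without Q140 Msh3+/- female 4 (0.0414). With library totals Dnajc4 (-0.20) and Dnajb2 (-0.16) passed and Dnajc2 did not. Of the markers, 8 of 14 for medium spiny neurons (median log2 change 0.25) and 6 of 10 for choroid plexus (median 2.67) were higher. The choroid plexus sum reached 4397 CPM in Q140 Msh3+/- female 1, against a group median of 55.46. The part of these markers in the values was not tested.

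**Figure D4:**
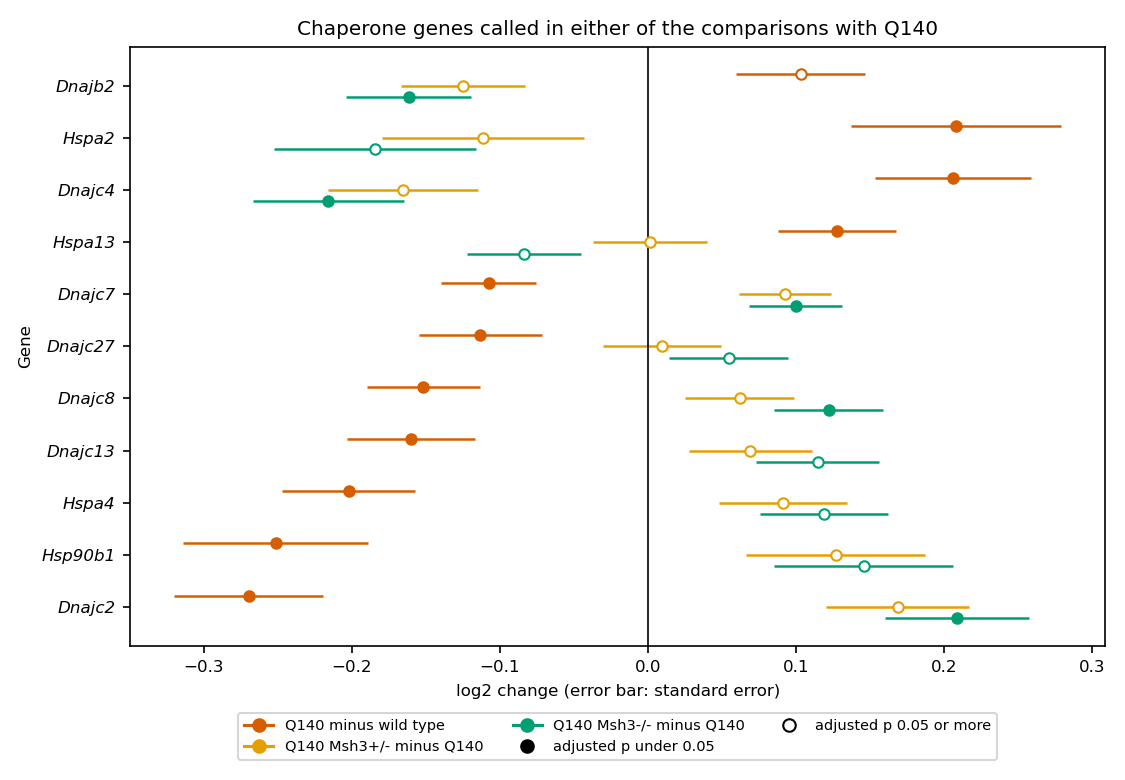
Log2 changes with standard errors of the members called in Q140 compared with wild type or in Q140 Msh3-/- compared with Q140, shown in both and in Q140 Msh3+/- compared with Q140. Dnajc2 has -0.27, 0.21 and 0.17 in that order and Dnajc4 0.21, -0.22 and -0.17, all 3 comparisons sharing the Q140 libraries.

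Without the Q140 allele the Msh3 genotypes gave no called member. Of all genes 0.01% passed between Msh3+/- and wild type and 0.03% between Msh3-/- and wild type. In edgeR 4 and 2 members had an unadjusted p under 0.05, and DESeq2 called 0 in both. Dnajc2 had medians of 45.3 CPM in Msh3+/- and 46.6 in Msh3-/-, and every library lay inside its wild type range of 42.9 to 53.9. Hsp90b1 reached 443 CPM in Msh3+/- and 453 in Msh3-/-, above the wild type maximum of 356, in the female 1 library of each group, which share the stem of their animal codes, while its medians of 334 and 338 were close to the wild type median of 340.

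The Q140 allele was also compared within each Msh3 genotype. Among Msh3+/- mice 2 members passed, Dnajc8 lower (log2 change -0.13 ± 0.04, edgeR adjusted p = 0.0176) and Dnajc4 higher (0.17 ± 0.05, adjusted p = 0.0288), where 6.45% of all genes did. Dnajc4 had 7.39 to 9.09 CPM in Msh3+/- and was above that range in 5 of 8 Q140 Msh3+/- libraries. Dnajc8 had 75.3 to 97.5 CPM in Msh3+/- and was below that range in 2 of 8. The call of Dnajc4 was lost without Q140 Msh3+/- female 4 (adjusted p = 0.0633), and that of Dnajc8 without Q140 Msh3+/- female 1 and Msh3+/- female 5 together (adjusted p = 0.0796). With plate row as a covariate both were lost (adjusted p = 0.0604 for Dnajc4 and 0.102 for Dnajc8) and Dnajc15 passed instead (0.16, adjusted p = 0.033). With only the groups compared both were lost too (0.078 and 0.0994). In this comparison 12 of 14 medium spiny neuron markers were lower (median log2 change -0.37) and 7 of 10 choroid plexus markers higher (median 2.80). The choroid plexus sum reached 4397 CPM in Q140 Msh3+/- female 1, while the group medians were 55.46 CPM in Q140 Msh3+/- and 46.47 in Msh3+/-. The part of both marker lists in these calls was not tested.

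Among Msh3-/- mice no member passed between Q140 and non-Q140 libraries, where 0.0751% of all genes did. In edgeR 3 members had an unadjusted p under 0.05, Hsp90b1 with a log2 change of -0.15, Hspb8 with -0.21 and Hsp90aa1 with -0.09, and DESeq2 called 0.

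The difference of the Q140 effect between Msh3 genotypes was tested as an interaction. With Msh3-/- it passed for Dnajc2 alone among the members (0.24 ± 0.07 on the log2 scale, edgeR adjusted p = 0.0467), where 2.39% of all genes passed. That call held in 10 of 20 alternatives and was lost with plate row as a covariate (0.226), without wild type female 3, without Q140 male 2 and without Q140 Msh3+/- female 1 and Msh3+/- female 5 together, and without the 3 libraries that share a stem (0.0893), where Hspa4 passed (0.20, adjusted p = 0.0409). Its adjusted p ran from 0.0222 to 0.226 over all 20. Dnajc4 had an interaction of -0.20 ± 0.07 (edgeR adjusted p = 0.145). With library totals Dnajc2 did not pass, and 4 others did with a negative interaction, Dnajc4 (-0.26), Dnajc6 (-0.15), Dnajc18 (-0.13) and Dnajc11 (-0.13). With Msh3+/- no member and 0% of all genes passed in edgeR, 5 members had an unadjusted p under 0.05, and DESeq2 called 0.

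Of the 3 Hsp90 genes, 2 were higher in females than in males, but both calls were lost without 3 female libraries that share the stem of their animal codes. Over 24 libraries of each sex, with the group in the model, 3 members were higher in females and none lower, where 2.93% of all genes tested passed. Hsp90aa1 had 217 to 270 CPM in females, median 237, and 196 to 245 in males, median 229, a log2 difference of 0.09 ± 0.02 (edgeR adjusted p = 0.0186). Hsp90b1 had 269 to 453 CPM, median 338, and 249 to 358, median 311, a difference of 0.13 ± 0.03 (edgeR adjusted p = 0.0244).

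Hspa4 was the third, with 187 to 272 CPM in females and 171 to 238 in males. Its difference was 0.08 ± 0.03 (edgeR adjusted p = 0.0486), and it was lost without Msh3+/- female 1 (0.0834), Q140 Msh3+/- female 4 (0.0565), wild type female 3 (0.067) or wild type male 2 (0.0514), with RLE scaling (0.0585) or no count filter (0.0618), and with the animal code stem as a random block (0.0732). The sexes overlapped in all 3 genes. Without Msh3+/- female 1, Msh3-/- female 1 and Msh3-/- female 2 no member passed in edgeR, with adjusted p of 0.0926 for Hsp90aa1, 0.111 for Hsp90b1 and 0.215 for Hspa4.

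Other genes of the chaperone pathway gave counts beside these. Of 53 cochaperones and regulators tested, 6 were higher and 5 lower in Q140 than in wild type, or 20.8%, close to the 19.9% of all genes. Tomm70a, the mitochondrial import receptor that takes clients from Hsp70 and Hsp90, had a log2 change of -0.28 (edgeR adjusted p = 9.66e-05). St13, the Hsp70-interacting protein Hip, had -0.17 (adjusted p = 0.000239), and Sgtb, Bag4 and Bag5 had -0.19, -0.16 and -0.15. The higher ones included Bag2 (0.34), an Hsp70 exchange factor, the prefoldin subunit Vbp1 (0.25), Ahsa2 (0.21), the Hsp90 immunophilin Fkbp4 (0.15) and the chaperonin subunit Cct6a (0.11).

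In Q140 Msh3-/- against Q140, 5 of the 53 were higher and 4 lower, or 17% beside 11.9% of all genes. Tomm70a had a log2 change of 0.27 (edgeR adjusted p = 0.000341), Sgtb 0.16, Bag5 0.15, and St13 and Bag4 0.12 each. Bag2 had -0.40 (adjusted p = 0.00457), Ahsa2 -0.25, Fkbp4 -0.17 and the myosin chaperone Unc45a -0.14. In Q140 Msh3+/- against Q140 Tomm70a was the only one called (0.18, adjusted p = 0.0478), or 1.89% beside 1.98%. Within Msh3+/- mice the Q140 allele gave higher Ahsa2 (0.27) and Unc45a (0.15) and lower Bag4 (-0.18) and St13 (-0.11), or 7.55% beside 6.45%.

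Among J-domain genes with other symbols, Hscb, the iron-sulfur cluster cochaperone, was higher in Q140 than in wild type, with a log2 change of 0.39 (edgeR adjusted p = 0.00287). Gak, a relative of auxilin, and Sec63, of the endoplasmic reticulum translocon, were lower, both with -0.08 (edgeR adjusted p = 0.0388 and 0.0412). In Q140 Msh3-/- against Q140, Sec63 was higher by 0.09 (edgeR adjusted p = 0.02).

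Of 16 further targets of the unfolded protein response none was called in Q140 against wild type in edgeR, and 3 had an unadjusted p under 0.05. The transcription factor Atf4 was lower in Q140 Msh3-/- than in Q140 (-0.20, edgeR adjusted p = 0.019), and the lectin chaperone Calr was higher in females (0.18, adjusted p = 0.00667).

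Members also varied together between libraries of one group. For 14 pairs chosen by shared location or inducer, log2 CPM was expressed as the deviation from the mean of the library's group and sex and correlated over the 48 libraries. The closest pairs were Hspa8 and Hsph1, with a Pearson r of 0.878 and a Spearman rho of 0.849, and Hspa5 and Hsp90b1, with 0.877 and 0.877. Both had permutation p = 1e-05, the smallest that 100000 resamples can give, and adjusted p = 2.8e-05 over the 14 pairs. Without the 2 libraries farthest from the median they were 0.824 and 0.857, and each was above 0 in 6 of 6 groups, at 0.793 to 0.956 and 0.633 to 0.993. The permutation treats libraries as exchangeable, although 36 of 48 carry an animal code whose stem is shared with another library. It also shuffles the deviations as 48 free values. The group and sex means were subtracted first, so the permutation p-values of all 14 pairs may be too small. Without Msh3+/- female 1, Msh3-/- female 1 and Msh3-/- female 2, which share a stem, r was 0.811 and 0.881.

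The inducible pair Hspa1a and Hspa1b had r = 0.746 and rho = 0.728, a value that shared reads can raise. Hspa1a also went with Hspb1 (r = 0.59, rho = 0.681), and Hspa5 with Dnajc3, an endoplasmic reticulum J-domain protein (r = 0.594, rho = 0.642), all 3 with permutation adjusted p = 2.8e-05. Without the 2 farthest libraries these were 0.651, 0.611 and 0.527. In contrast Hspa5 and Dnajb9, another J-domain protein of the endoplasmic reticulum, had r = -0.0558 and rho = -0.0536 (permutation adjusted p = 0.707). Hspd1 and Hspe1 had r = 0.501 and rho = 0.446 (permutation adjusted p = 0.0005), or 0.435 without the 2 farthest, and Hspd1 and Hspa9 r = 0.26 and rho = 0.331 (permutation adjusted p = 0.081 by Pearson and 0.0233 by Spearman).

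Among the remaining pairs, Hspa4 and Hspa4l had r = 0.572 and rho = 0.477, or 0.437 without the 2 farthest libraries (permutation adjusted p = 4.67e-05). Hspa1a with Hsph1, Dnajb1 and Hspa8 had r of 0.458, 0.454 and 0.448, and Hspa8 with Dnajb1 0.436. Their rho were 0.53, 0.474, 0.521 and 0.416, and r without the 2 farthest libraries 0.457, 0.388, 0.455 and 0.362. Hspa1a and Hsp90aa1 had r = 0.395 and rho = 0.355 (permutation adjusted p = 0.00679), but 0.284 without Q140 Msh3+/- male 1 (adjusted p = 0.062). By Pearson's r 12 of 14 pairs passed, and by Spearman's rho 13 of 14. Pairs of other genes were not correlated, so how many would pass in these libraries is not known.

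**Figure D5:**
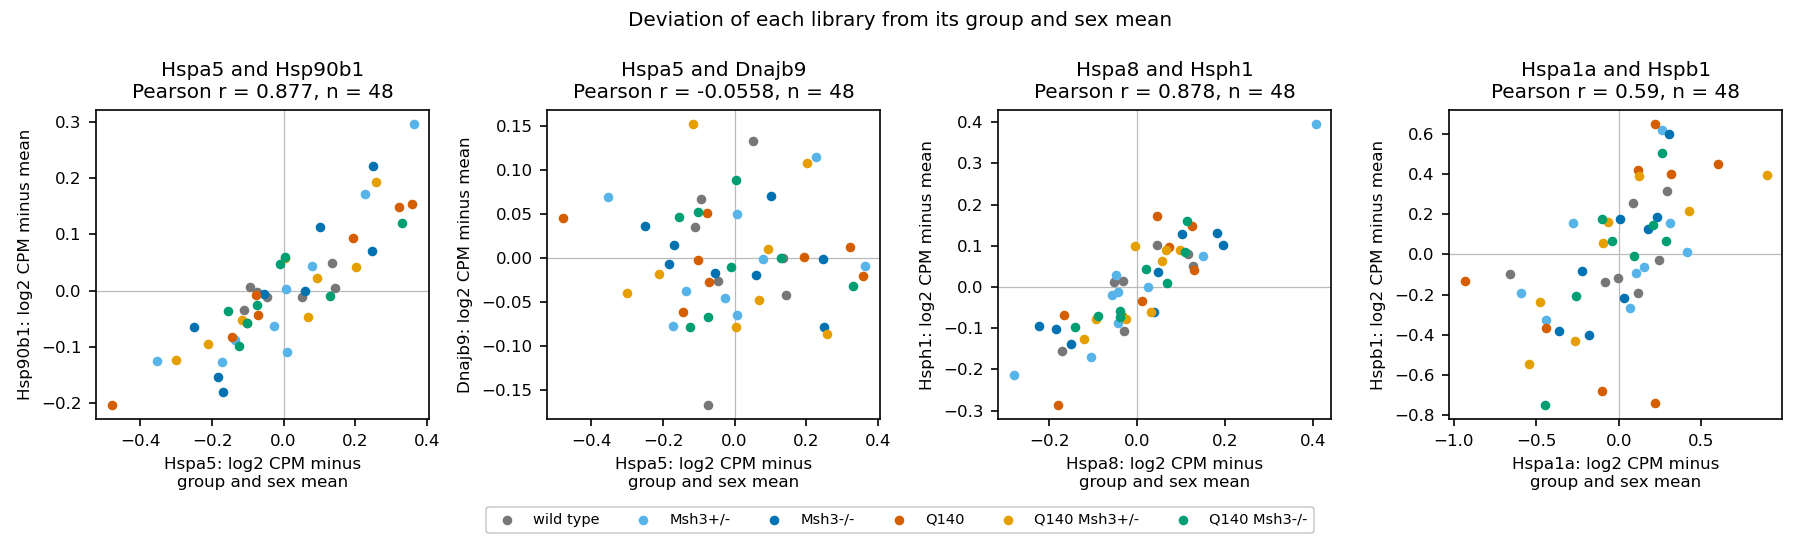
Deviation of log2 CPM from the mean of the group and sex, 1 point a library (n = 48), for pairs of members, colored by group. Hspa8 with Hsph1 and Hspa5 with Hsp90b1 lie along a line (r = 0.878 and 0.877), while Hspa5 with Dnajb9 does not (r = -0.0558).

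Promoter windows of 300 bases, 250 before to 50 after the RefSeq start (GRCm38.p6), were found for 55 of 67 member symbols. The heat shock element was searched on both strands as GAANNTTCNNGAA and TTCNNGAANNTTC, spellings that can overlap, and lay in 4 of 55 members (7.27%), Dnajb6, Hspd1, Hspe1 and Hsph1, and in 0.662% of 27025 symbols. The endoplasmic reticulum stress element, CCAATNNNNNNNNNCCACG or its reverse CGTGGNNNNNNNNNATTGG, lay in 3 of 55 (5.45%), Hspa5, Hsp90b1 and Dnajc3, and in 0.137% of symbols. Of these, Hspa5 was correlated above with Hsp90b1 and with Dnajc3, pairs chosen by shared location or inducer. The pair of Hsp90b1 and Dnajc3 was not tested, nor was any part of the element in these correlations. In the spelling searched the windows of Hspa1a, Hspa1b and Dnajb1 held no heat shock element, and the match of Hsph1 lay after its start. A match describes letters and shows no binding. The stretches are shown in the gene's own direction with the element in capitals, those of the heat shock element first.
Hspe1 (chr1:55088053-55088082, + strand, element ending 71 bases before the start, within a UTR of the neighbouring Hspd1): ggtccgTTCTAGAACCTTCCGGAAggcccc
Dnajb6 (chr5:29735844-29735872, + strand, 33 bases before, within a Dnajb6 UTR and the coding sequence of Gm5129, and also in the window of a second Dnajb6 start): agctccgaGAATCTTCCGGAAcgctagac
Hspa5 (chr2:34772020-34772048, + strand, 46 bases before, within a UTR of an Hspa5 transcript): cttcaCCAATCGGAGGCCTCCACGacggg
Hsp90b1, farther copy (chr10:86705633-86705661, - strand, 193 bases before, outside annotated exons): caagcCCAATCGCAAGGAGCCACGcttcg
Hsp90b1, nearer copy (chr10:86705528-86705556, - strand, 88 bases before, outside annotated exons): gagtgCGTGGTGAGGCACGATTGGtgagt
Dnajc3 (chr14:118937822-118937850, + strand, 86 bases before, outside annotated exons): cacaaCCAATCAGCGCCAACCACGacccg

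The capitals of Hspe1 hold 2 overlapping matches, which its window shares with that of Hspd1, since the genes lie head to head. The second copy in Hsp90b1 is in the reverse spelling. The windows of Hspa1a and Hspa1b differ at 4 of 300 positions (98.67% identical), one view of how alike these genes are.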

How the data were processed

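RNA of 48 striatal libraries was sequenced from stranded Illumina TruSeq libraries, per the labels' protocols. STAR 2.7.5c, SAMtools 1.10, HTSeq 0.12.3 and the GRCm38/mm10 build are named in the submitters' processing notes. Whether counting used strand is not given in the sources used here, so overlapping genes on opposite strands may share reads. The deposited counts are whole reads per gene. The FPKM values deposited by the authors are relative to library totals and gene length, and served for levels between genes and as an alternative. Totals were 33.7 to 52.8 M counts (median 45 M), so low members limit precision.

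Counts were tested in R 4.3.3 with edgeR 4.0.16 (filterByExpr with minimum count 10 and minimum total 15, TMM factors of 0.956 to 1.09, robust quasi-likelihood fit of group means plus sex over all 48 libraries, Benjamini-Hochberg over 19975 genes). Contrasts were 10 in number. Alternatives used DESeq2 1.42.0, limma 3.58.1 with log2(FPKM + 0.1) and log2(FPKM + 1), other scalings, filters and covariates, and libraries left out. The code was tested on simulated data. Co-variation used permutation tests (100000 resamples, two-sided, scipy 1.17.1).

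Every member past the threshold was named, with a fixed set of 26 members, the extremes of each family and, at most 10 a comparison, called genes of the other lists. The members and lists were chosen with earlier results of these data known. The labels do not say that each library is a separate mouse, so p-values measure the spread between these samples, which may be technical. The series text gives 7 to 8 libraries a group, while 9 are labelled Msh3+/-. Gene positions are from GENCODE M21, promoter windows from RefSeq. Some results of the other lists are not reported here.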

Additional observations from a re-analysis of the deposited data

Results flagged for a closer look

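In 33 genes and 6 groups, or 198 sets of values, 14 held a library whose gap to its nearest neighbor was large for the range of its group; chance alone gives about 1 in 20 sets. Msh3+/- female 1 stood high in 4 genes, with 443 CPM of Hsp90b1 (median of the others 333), 434 of Hsph1 (307), 265 of Hsp90aa1 (229) and 2.08 of Hspb1 (1.28). Its animal code shares a stem with Msh3-/- female 1 and female 2, and Msh3-/- female 1 had 453 CPM of Hsp90b1. Q140 Msh3+/- female 4 stood apart in 4 J-domain genes, low in Dnajc13 (77.6 against 97.4 CPM) and Dnajc27 (91.1 against 114) and high in Dnajc8 (87.5 against 78.1) and Dnajb6 (19.1 against 16.9). Q140 Msh3+/- male 1 was high in Hspa1b (2.53 against 1.05 CPM) and Dnajb1 (45.1 against 37.7).

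Q140 Msh3+/- female 1 had 68.3 CPM of Dnajc3 (median of the others 53.3), and in this library the 10 choroid plexus markers summed to 4397 CPM, against a group median of 55.46. Hsp90ab1 was low in Q140 Msh3-/- male 2 (1260 against 1430 CPM), Hspa2 in Q140 Msh3-/- female 4 (23.1 against 31.0) and Hspa13 in Msh3-/- male 4 (39.8 against 43.9). The effect of Q140 on Dnajc2 differed between Msh3-/- and wild type Msh3 by 0.244 on the log2 scale in the edgeR interaction test (adjusted p = 0.0467).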

How the results depend on the processing

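Hsp90b1, Hspa4, Dnajc2 and Dnajc4 kept their calls in Q140 against wild type, and Dnajc2, Dnajc4 and Dnajb2 theirs in Q140 Msh3-/- against Q140, under all 20 alternatives; leaving out Msh3+/- female 1, Q140 Msh3+/- female 4, or Msh3+/- female 1 with Msh3-/- females 1 and 2 was added after seeing the data. Called members in Q140 against wild type were 10 with TMM, 22 with library totals, 24 on FPKM with either pseudocount and 6 with only the groups compared. In Q140 Msh3-/- against Q140 they were 5, 17 with totals, 17 on either FPKM scale and 3 without a count filter; with plate row 5 were called, 3 of them shared with the 5. In Q140 Msh3+/- against Q140 they were 0, with 1 under RLE scaling, the 1 CPM filter, the replicate block and voom with the animal stem as block, 2 with totals and with DESeq2, and 3 on either FPKM scale; leaving out libraries gave 0 to 1. In Q140 Msh3+/- against Msh3+/- they were 2, with 5 by totals and on either FPKM scale, 1 without a filter, 1 with plate row, which is neither of the 2, 0 with only the groups compared, and 1 to 2 without libraries. The Msh3-/- interaction had 1, with 4 by totals, 5 on either FPKM scale, 0 without a filter, with only the groups compared and with plate row, and 0 to 1 without libraries. Between the sexes 3 were called, and 0 to 3 without libraries, with 0 without the 3 that share a stem. Hspa9 in Q140 against wild type reversed to 0.0675 on log2(FPKM + 0.1) and 0.0664 on log2(FPKM + 1). The correlation of Hspa1a with Hsp90aa1 was 0.284 to 0.38 without libraries, lowest without Q140 Msh3+/- male 1. Scaling and sample number differ by construction in these alternatives; other causes were not tested.

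In no comparison did every same-numbered pair of libraries deviate together by over 0.1, so the numbers were not taken as pairing samples. The rule is strict, so it does not show that the numbers carry no pairing. Over the 7 comparisons the correlations ran from -0.299 to 0.256. For Q140 and wild type the 7 correlations ran from -0.171 to 0.135. For Q140 Msh3+/- and Q140 the median was 0.109, 4 of 8 were over 0.1 and 6 of 8 libraries correlated best with their own number, and for Msh3+/- and wild type the median was 0.102 with 5 of 7 over 0.1. With the replicate block 9 members were called in Q140 against wild type and 5 in Q140 Msh3-/- against Q140. In Q140 Msh3+/- against Q140 Dnajc2 was called with that block (0.167, edgeR adjusted p = 0.0423). Depth limits Hspa1l, Hspb2 and Hspb3, with at most 18, 20 and 16 counts a library.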
